A study of Mus musculus with 4 samples.

Results

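The genes examined here form the insulin, IGF and FoxO axis: the ligands Igf1 and Igf2, the receptors Insr and Igf1r, the adaptors Irs1 and Irs2, the transcription factors Foxo1 and Foxo3, and Oser1. They are 9 of the 32285 mouse genes in the count matrices, chosen by symbol, and all 9 were found in each of the 4 matrices. Single-nucleus RNA was read from whole hearts of WT mice at postnatal day 12. At postnatal day 7 the pups had received saline (control) or the virus AAV9-cTnT-YAP5SA, and they were kept with mothers on chow or a high-fat diet (HFD) for 5 days. YAP5SA is YAP, a co-activator of transcription, in a form that stays active, and the cardiac troponin T promoter (cTnT) of the vector drives it in cardiomyocytes. Each combination of injection and diet is 1 library, so there are 4 libraries in all. No library received an empty or marker virus, so the vector and its cargo cannot be told apart. The sources used here do not say how many hearts went into a library, and p-values measure only the spread between these 4 libraries.

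Insulin and the IGFs bind receptor tyrosine kinases on the cell surface, of which Insr answers mainly to insulin and Igf1r mainly to IGF1 and IGF2. The active receptor phosphorylates the adaptors IRS1 and IRS2, which recruit PI3-kinase, and AKT then phosphorylates FoxO proteins so that they leave the nucleus. In the heart this pathway is known for its part in cardiomyocyte growth around birth and in glucose uptake, and FoxO factors are known to induce genes for stress resistance, protein breakdown and cell cycle arrest.

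Diet was taken from the sample titles. The treatment label names the other diet for 2 of the 4 libraries: HFD for YAP5SA on chow, and chow for control on HFD. Under those labels every control library would be on chow and every YAP5SA library on HFD, so that injection and diet could not be told apart anywhere, while all labels give each library the same injection. The libraries held 6977 to 11158 barcodes, with totals of 43.4 to 61.2 (in units of 1e6) unique molecular identifiers (UMIs, which mark single captured RNA molecules), and 6048 to 10009 nuclei per library were kept. YAP5SA on chow stood apart by sex: it had 260 Xist UMIs and 3964 Ddx3y UMIs, against at least 92725 and at most 15 in each other library, so sex moved with that 1 library and its part in the results was not tested. Any 2 libraries shared 7 to 27 barcodes among the kept nuclei. Clustering gave 30 clusters and 10 named classes, of which 7 had at least 100 nuclei in every library. Between 4.57% and 9.14% of the kept nuclei of a library stayed unnamed. Runs of 4 library values follow 1 order throughout, control then YAP5SA on chow, followed by control then YAP5SA on HFD. Yap1 in cardiomyocyte-like nuclei read 136, 107, 128 and 120 CPM (UMIs of a gene per 1e6 UMIs of the class), so its counts gave no check of the delivered gene (log2 fold -0.28, edgeR adjusted p = 0.274). The sources used here do not say whether transcripts of the vector count as Yap1. Ankrd1, a known YAP target, read 1116, 3145, 980 and 1886 CPM in these nuclei and missed the threshold of 0.05 (log2 fold 1.22, edgeR adjusted p = 0.0549). In fibroblast-like nuclei it read 30.6, 137, 28.1 and 111 CPM and passed (log2 fold 1.96, edgeR adjusted p = 0.00086).

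In mm10 (GENCODE vM21 gene bounds) Irs1 lies on the minus strand of chromosome 1 from 82233101 to 82291416 and Irs2 on the minus strand of chromosome 8 from 10984681 to 11008458. Insr is on the minus strand of chromosome 8 from 3122061 to 3279617, and Igf1r on the plus strand of chromosome 7 from 67952827 to 68233668. Igf1 spans 87858265 to 87937042 on the plus strand of chromosome 10, and Igf2 142650766 to 142666816 on the minus strand of chromosome 7. Foxo1 spans 52268336 to 52353221 on chromosome 3 (plus), Foxo3 42181841 to 42276755 on chromosome 10 (minus) and Oser1 163405822 to 163424697 on chromosome 2 (minus). A gene on the opposite strand that is also in the matrices overlaps 7 of the 9, all but Igf1r and Foxo3, and the sources used here do not say whether the counting used strand. Levels in CPM are not scaled to gene length, so they are compared between libraries and classes and never between genes.

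The 250 bases before the RefSeq start (GRCm38.p6) were searched on both strands for a TEAD motif (GGAATG or CATTCC, the letters bound by the partner factors of YAP), a FoxO motif (GTAAACA or TGTTTAC) and an insulin response element (CAAAACA or TGTTTTG). Windows were available for 8 of the 9 genes, and 6 of their 11 windows held a match. Irs1, Irs2 and Igf1r are printed because the adaptors went separate ways between libraries while Igf1r followed the injection in cardiomyocyte-like nuclei. Capitals mark the matches, the sequences read 5′ to 3′ on the gene's strand, and the windows are chr1:82291440-82291689 (minus), chr8:11008930-11009179 (minus) and chr7:67952007-67952256 (plus).
Irs1: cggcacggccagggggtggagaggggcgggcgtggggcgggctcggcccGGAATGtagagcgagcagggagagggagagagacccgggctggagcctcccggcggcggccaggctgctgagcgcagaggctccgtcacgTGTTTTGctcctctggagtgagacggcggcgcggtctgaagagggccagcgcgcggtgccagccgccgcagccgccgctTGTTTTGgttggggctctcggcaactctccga
Irs2: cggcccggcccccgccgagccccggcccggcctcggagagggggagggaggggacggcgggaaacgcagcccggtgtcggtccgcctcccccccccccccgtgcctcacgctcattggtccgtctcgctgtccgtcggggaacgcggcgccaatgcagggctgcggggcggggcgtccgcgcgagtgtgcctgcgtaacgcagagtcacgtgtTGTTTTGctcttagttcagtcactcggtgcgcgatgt
Igf1r: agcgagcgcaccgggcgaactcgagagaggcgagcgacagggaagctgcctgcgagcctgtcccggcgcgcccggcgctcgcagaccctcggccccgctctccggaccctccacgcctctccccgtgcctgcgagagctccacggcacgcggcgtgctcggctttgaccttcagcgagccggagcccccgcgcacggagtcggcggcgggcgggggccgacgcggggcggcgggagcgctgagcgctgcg
Counting back from the start, the Irs1 window held GGAATG at -201 and TGTTTTG at -111 and -32, the Irs2 window held TGTTTTG at -37, and the Igf1r window held none of these letters. Among 32851 windows of 250 bases, 12.6% held the TEAD letters, 3.17% the FoxO letters and 5.56% the insulin response element letters on either strand. Elsewhere TEAD letters stood in 3 Igf2 windows and in the Foxo3 window. These matches describe the letters only.

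Each gene had its own distribution over cell classes, ordered here only over the 7 larger classes (100 or more nuclei from each library). Smooth muscle-like, lymphatic endothelial-like and Schwann-like nuclei were fewer and stay out of the order. Insr was highest in cardiomyocyte-like nuclei, at 546 to 850 CPM over the 4 libraries, above the 211 to 384 CPM of the endocardial-like class that came next, with no overlap, and above the 272 to 384 CPM of the smaller smooth muscle-like class. Those nuclei supplied 82.4% to 89.2% of the Insr UMIs in named nuclei. Igf1r was high in epicardial-like (800 to 896 CPM) and fibroblast-like nuclei (745 to 908 CPM), and the cardiomyocyte-like range of 336 to 1105 CPM overlapped both. Outside the order, smooth muscle-like nuclei read 803 to 1053 CPM of Igf1r, with a mean of 935 CPM, and Schwann-like nuclei 676 to 1098 CPM.

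Igf2, the fetal growth factor, was an endocardial gene here. It read 403 to 576 CPM in endocardial-like nuclei, 72.7 to 111 CPM in endothelial-like nuclei and 16.2 to 17.9 CPM in cardiomyocyte-like nuclei, where it was lowest of the 7 classes by mean. Of the 7 classes none overlapped the endocardial-like or the endothelial-like range, while lymphatic endothelial-like nuclei, outside the order, read a mean of 75.5 CPM and overlapped the latter. Igf1 was highest by mean in endothelial-like nuclei (190 to 212 CPM) and lowest by mean in cardiomyocyte-like nuclei (17.3 to 84.1 CPM), and every neighbour in that order overlapped. Outside the order, smooth muscle-like nuclei read 0 to 37.4 CPM of Igf1, with a mean below that of cardiomyocyte-like nuclei.

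Of the 7 classes Irs1 was highest in fibroblast-like (205 to 307 CPM) and cardiomyocyte-like nuclei (182 to 248 CPM), whose ranges overlapped. Pericyte-like nuclei read 120 to 173 CPM, epicardial-like nuclei 88.4 to 140 CPM and endothelial-like nuclei 8.96 to 14.5 CPM. Smooth muscle-like nuclei, outside the order, read 100 to 184 CPM and overlapped the cardiomyocyte-like range. Irs2 was highest by mean in cardiomyocyte-like nuclei, at 26.4 to 156 CPM, and was at 0 to 6.07 CPM in endothelial-like nuclei. Of the 7 classes Foxo1 led in endothelial-like (311 to 360 CPM) and endocardial-like nuclei (264 to 384 CPM), below the 400 to 675 CPM of the few lymphatic endothelial-like nuclei. Foxo3 led by mean in macrophage-like nuclei (177 to 271 CPM). That range overlapped those of epicardial-like nuclei (106 to 192 CPM) and of smooth muscle-like nuclei outside the order (106 to 194 CPM). Oser1 ranges overlapped between all neighbouring classes, and in each of the 7 classes the lowest value was that of control on chow.

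**Figure D1:**
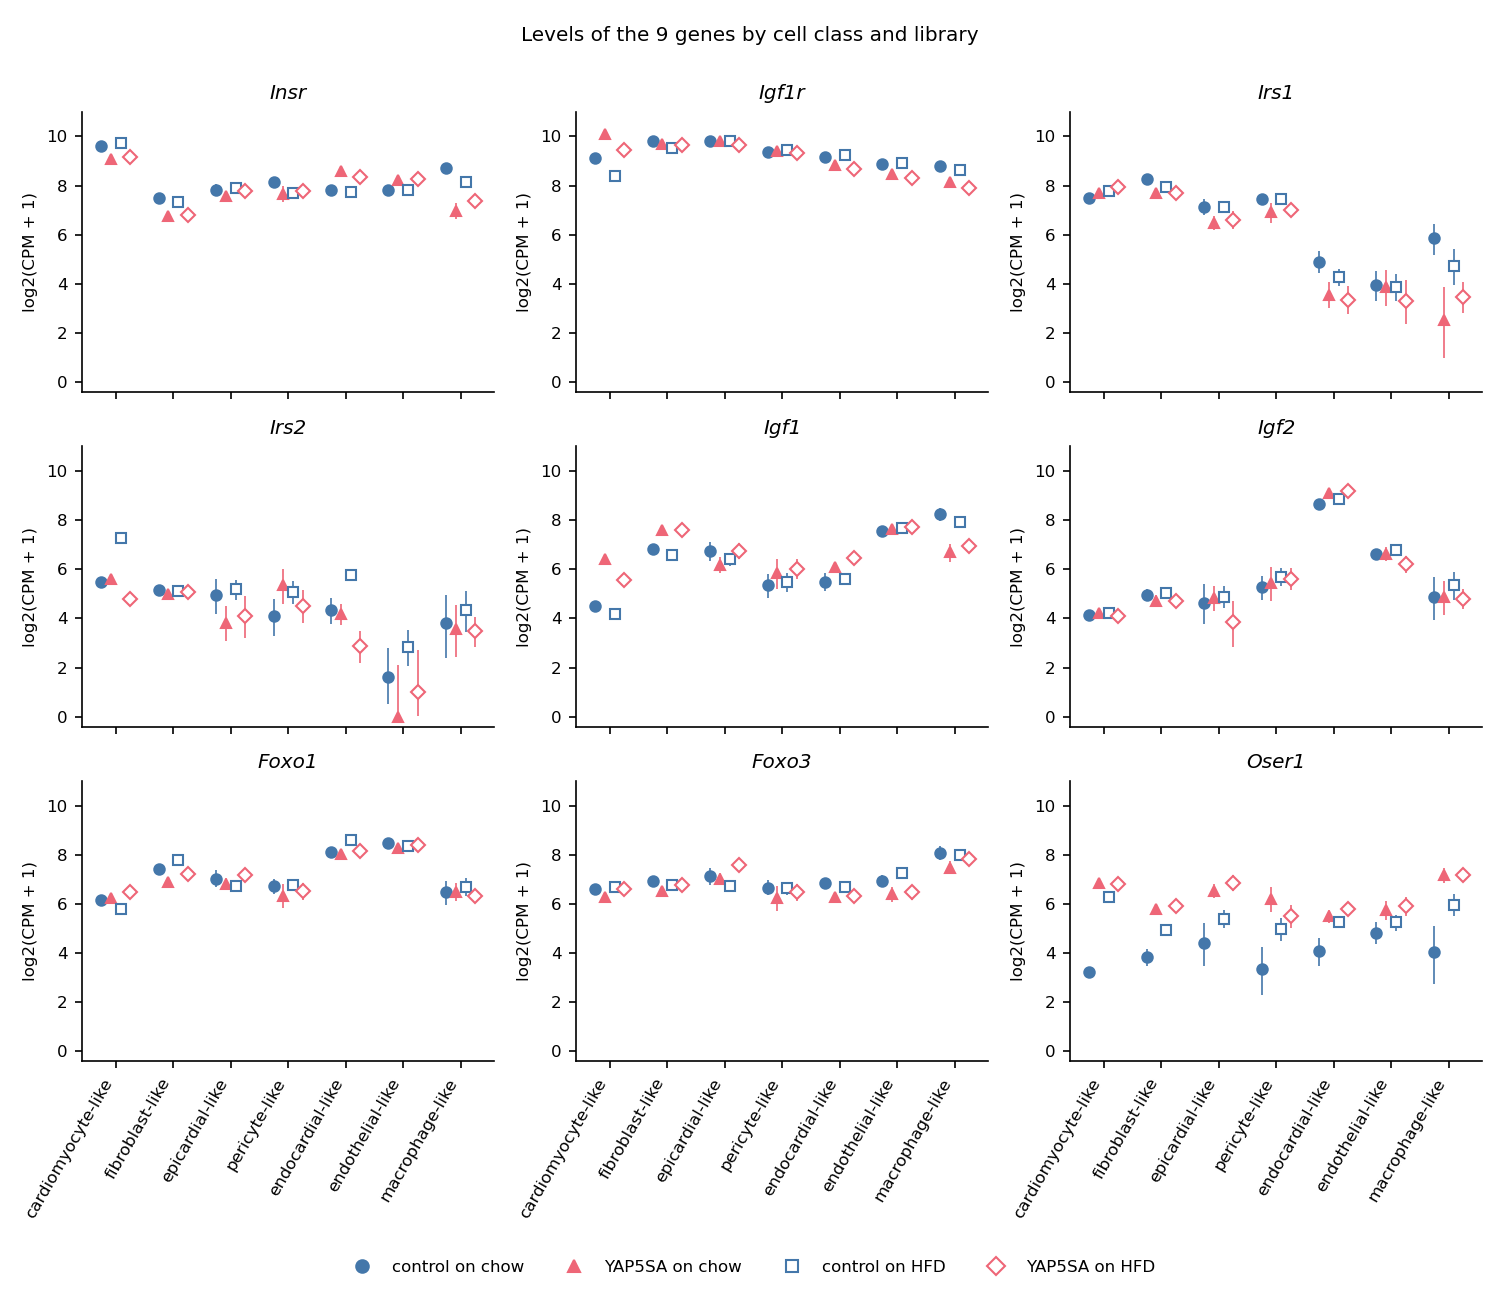
Level of each of the 9 genes as log2(CPM + 1) in the 7 classes with at least 100 nuclei per library, 1 point per library with a 95% Poisson interval that covers counting error only. Insr stands highest in cardiomyocyte-like nuclei and Igf2 in endocardial-like nuclei, in every library, and the filled circle of control on chow is the lowest Oser1 point in each class.

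Over the 40 sums of 10 classes and 4 libraries, the gene most like Irs1 in log2(CPM + 1) among 7963 genes was Prrx1 (Pearson r 0.907), followed by Adamtsl5 and B3galt1. Insr was most like Kcnq1 (0.811), then Actc1 and Etfdh, and Igf2 most like Cemip2 (0.881), then Emcn and Nos3. Igf1r was most like Mmp16 (0.882), then Tbx18 and Xkr4, Foxo1 most like Nxn (0.879), then 4931406P16Rik and Shank3, and Igf1 most like Baz1a (0.834), then Chek2 and Nsun6. The closest genes were less alike for Irs2 (Itfg2, 0.789, then Slc4a3 and Gata4), Foxo3 (Ctps2, 0.740, then Kdm3b and Arhgap12) and Oser1 (Rsl1d1, 0.681, then Cct2 and Eif1a). Sums of 1 library share its depth and its free RNA, and these values are descriptions.

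In cardiomyocyte-like nuclei the YAP5SA libraries held more Igf1 and Igf1r and less Insr than the controls, and only Igf1 passed the test. Igf1 read 21.5 (control) and 84.1 CPM (YAP5SA) on chow, against 17.3 and 45.9 CPM on HFD, so both YAP5SA libraries lay above both controls. The share of cardiomyocyte-like nuclei with an Igf1 UMI was 10.0%, 25.3%, 8.40% and 15.1% in the same order, and 3.66%, 12.4%, 2.76% and 6.86% after each nucleus was thinned to 2000 UMIs, which left out 48 to 120 nuclei of the class per library. Igf1 rose by 1.70 on the log2 scale (SE 0.34, edgeR quasi-likelihood test, 2 libraries against 2, adjusted p = 0.0292). Cardiomyocyte-like nuclei gave 31.2% and 16.1% of the named nuclei's Igf1 UMIs in the controls on chow and HFD, and 58.5% and 32.3% in the YAP5SA libraries.

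The same edgeR fit called 11.7% of 16910 genes in cardiomyocyte-like nuclei (7.59% higher and 4.08% lower), and 1 of the 9 genes of the axis, so their share was near that of all genes. Libraries of the 2 arms did not overlap for 6 of the 9: Igf1, Igf1r, Foxo1 and Oser1 were higher in both YAP5SA libraries, as were 35.2% of all genes, and Insr and Foxo3 lower, as were 23.6%. The median log2 fold of the 9 was 0.12, beside 0.04 over all genes tested.

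The receptors went opposite ways in cardiomyocyte-like nuclei. Igf1r read 558, 1105, 336 and 702 CPM, and was higher with YAP5SA on each diet by 0.98 and 1.06 on the log2 scale. Its fold over both diets was 0.97 (SE 0.34, edgeR adjusted p = 0.114), and it was lower on HFD in both arms, by log2 folds of -0.73 and -0.65. Insr read 770, 546, 850 and 571 CPM by library, with a log2 fold of -0.61 (SE 0.18, edgeR adjusted p = 0.0807). Neither receptor passed the threshold in this fit, although the arms did not overlap for either. Both passed with DESeq2, at adjusted p = 0.0382 for Igf1r and 0.0394 for Insr, and Igf1r also in edgeR fits with diet as a second term or without the library control on chow or YAP5SA on HFD. Nuclei with an Igf1r UMI made up 88.1%, 90.7%, 76.2% and 81.3% of the class in that order of libraries, and 63.2%, 77.3%, 44.0% and 62.4% after thinning. The share with an Insr UMI was 94.9%, 86.7%, 95.4% and 86.2%, and ranged from 62.7% to 77.9% over the libraries after thinning. Shares without thinning also move with depth, which was lower in the YAP5SA libraries (medians of 5795, 4999, 6022 and 4899.5 UMIs in the same order).

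The adaptors did not move together. Irs1 held between 182 and 248 CPM in all 4 libraries (182, 209, 218 and 248 in the order above), with overlapping arms and a log2 fold of 0.12 (SE 0.18, edgeR adjusted p = 0.726). Irs2 stood high in 1 library: it read 43.6 (control) and 47.5 CPM (YAP5SA) on chow, against 156 and 26.4 CPM on HFD. An Irs2 UMI was seen in 19.2%, 19.1%, 47.2% and 11.5% of the class, beside 0.822%, 0%, 1.85% and 0.270% in endothelial-like nuclei, a class with little Irs2. The 0 was of 358 nuclei, for which the exact 95% interval reaches 1.03%. The median depth was 4899.5 to 6022 UMIs in cardiomyocyte-like and 2450 to 3336 in endothelial-like nuclei.

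For Irs2 the contrast between arms, a ratio of CPM without the scaling of the edgeR fits, had opposite signs on the 2 diets. On chow it was small enough that its sign may depend on the scaling. With YAP5SA it was 0.12 on the log2 scale on chow (95% counting interval 0.0036 to 0.24) and -2.56 on HFD (-2.68 to -2.45). HFD over chow it was 1.84 among the controls and -0.85 among the YAP5SA libraries. Each such contrast compares 1 library with 1 library, the intervals cover counting error only, and whether the contrasts differ between diets could not be tested. Pooled over diets the log2 fold was -1.50 (SE 0.62, edgeR adjusted p = 0.164), and without control on chow it was -2.16 (adjusted p = 7.01e-05).

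Foxo1 and Foxo3 differed little between arms in cardiomyocyte-like nuclei. Foxo1 read 69.5, 73.8, 55.2 and 89.6 CPM in the same order of libraries, a log2 fold of 0.32 (SE 0.18, edgeR adjusted p = 0.282), and Foxo3 97.8, 77.0, 102 and 96.3 CPM, a log2 fold of -0.28 (SE 0.17, adjusted p = 0.311). Igf2 stayed at 16.7, 17.9, 17.7 and 16.2 CPM, and its log2 fold was -0.08 (SE 0.21, adjusted p = 0.841). None of these 3 passed the test.

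Oser1, a serine-rich protein named for its response to oxidative stress, was low in 1 library. It read 8.45 (control) and 114 CPM (YAP5SA) on chow, against 76.9 and 111 CPM on HFD, and an Oser1 UMI was seen in 5.22%, 44.5%, 36.3% and 41.8% of cardiomyocyte-like nuclei. The log2 fold of YAP5SA was 3.76 on chow (3.55 to 3.97 from counting) and 0.53 on HFD (0.44 to 0.61), and that of HFD over chow among the controls was 3.18. Control on chow was the lowest of the 4 libraries for Oser1 in all 7 classes, a pattern held by 23 of the 6795 genes compared (0.338%). Pooled over diets, the log2 fold in cardiomyocyte-like nuclei was 1.31 (SE 0.85, edgeR adjusted p = 0.356), and without control on HFD it was 3.69 (adjusted p = 1.22e-07).

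Single libraries were also set side by side at a threshold of 2-fold, among the 8474 genes with a mean of at least 10 CPM in cardiomyocyte-like nuclei. On chow Igf1 and Oser1 were at least 2-fold higher with YAP5SA, as were 8.6% of genes, and none of the 9 was 2-fold lower (7.02%). On HFD Igf1 and Igf1r were higher (10.6%) and Irs2 lower (3.65%). Between the controls Irs2 and Oser1 were higher on HFD, as were 1.55% of genes, and none was lower (0.684%). Between the YAP5SA libraries none of the 9 passed 2-fold in either direction (3.92% higher and 1.05% lower).

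The fit of HFD against chow with the arm as a term called 0 of the 9 in cardiomyocyte-like nuclei, where edgeR called 0.0% of 16910 genes, and 0 of the 9 in fibroblast-like nuclei (0.0521% of 15348). Before adjustment 2 of the 9 passed 0.05 in each class, beside 4.23% and 4.47% of all genes: Igf1r (log2 fold -0.73) and Igf1 (-0.64) in cardiomyocyte-like nuclei, and Oser1 (0.54) and Foxo1 (0.33) in fibroblast-like nuclei. DESeq2 also called 0 in both classes.

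**Figure D2:**
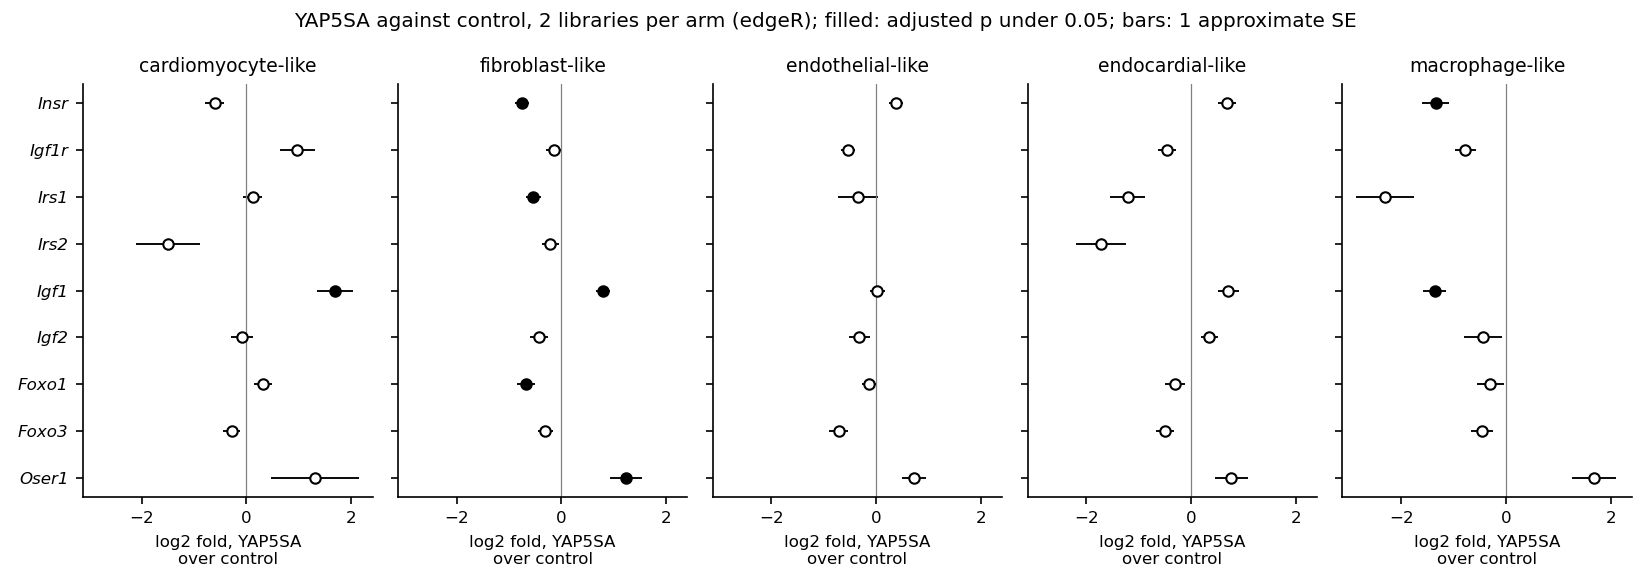
Log2 fold of YAP5SA over control from edgeR for each gene in 5 classes, 2 libraries per arm, with bars of 1 approximate standard error (the fold divided by the root of its F statistic) and filled points where the adjusted p is under 0.05. Igf1 is filled in the cardiomyocyte-like, fibroblast-like and macrophage-like panels, to the right in the former and to the left in the last.

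Cardiomyocyte-like nuclei of the 2 arms lay largely in different clusters, and the members' levels differed between those clusters. Clusters 7 and 8 held 90.6% and 91.1% of the class in the controls on chow and HFD, and 16.0% and 8.35% in the YAP5SA libraries. Clusters 11, 26 and 29 held 57.1% and 35.4% of the class in the YAP5SA libraries and no more than 3 nuclei in either control. Cluster 10 held 45, 228, 16 and 2092 nuclei in the order of libraries above, so most of it came from YAP5SA on HFD alone. Cluster 9 held 74, 716, 34 and 395 nuclei. Within cluster 9 on chow, Igf1 read 19.1 (control) and 36.3 CPM (YAP5SA), and Igf1r 745 and 737 CPM. Cluster 29, led by Cemip, Ptchd4 and the IGF-binding protein gene Igfbp2, had 1318 CPM of Igf1r, 259 of Insr and 127 of Igf1, with an Igf1 UMI in 41.7% of its nuclei. Cluster 26 had 1295, 491 and 90.0 CPM, and cluster 11 had 785, 657 and 75.7 CPM of the same genes. Clusters 7 and 8 had 472 and 395 CPM of Igf1r, 855 and 785 of Insr, and 23.1 and 18.2 of Igf1.

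Cluster 29 was named from markers at a lower limit set after the data were seen. Without it Igf1 was no longer called (log2 fold 1.33, edgeR adjusted p = 0.0839), and all-gene calls fell from 1283 higher and 690 lower to 583 and 250. In clusters 7 and 8 alone, edgeR called 0 genes of any kind, Igf1 had a log2 fold of 0.20 (adjusted p = 0.866), and Igf1r turned to -0.18 (adjusted p = 0.823). Clusters were formed from the expression of these same nuclei, so such fits keep the YAP5SA nuclei that resemble controls in the genes used for clustering. Here and below, fits in clusters 7 and 8 alone thus favour small differences and cannot decide whether a call is robust. In clusters found almost only with YAP5SA, a change within a nucleus and a change in which nuclei are present cannot be told apart.

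The cluster led by genes of cell division, cluster 5, held 73 to 248 nuclei of every library. Within it Igf1 read 13.2 (control) and 78.7 CPM (YAP5SA) on chow, against 10.5 and 67.9 CPM on HFD, log2 folds of 2.53 (1.80 to 3.44 from counting) and 2.62 (1.66 to 3.95). Igf1r was also higher within it, at 726 and 1485 CPM on chow and 488 and 990 on HFD, and Insr lower, with log2 folds of -0.50 and -1.22. Within cluster 7 the Igf1 contrast was 0.71 on chow (0.34 to 1.06) and 0.26 on HFD (-0.58 to 0.95), and that of Igf1r -0.34 and -0.01. Within cluster 8 Igf1 was level or lower with YAP5SA, at 20.2 and 19.8 CPM on chow and 17.3 and 8.94 CPM on HFD, and Igf1r read 523 and 420 CPM on chow and 302 and 386 CPM on HFD. In cluster 15, whose leading genes include the atrial Mybphl and Bmp10, Igf1r read 461 CPM with saline and 1133 CPM with YAP5SA on HFD, while Igf1 read 15.8 and 16.7.

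The Irs2 and Oser1 patterns were seen inside the clusters that the libraries share. Within cluster 7 the YAP5SA contrast of Irs2 was 0.07 on chow and -3.09 on HFD, and within cluster 8 it was 0.28 and -2.60. That of Oser1 was 3.48 and 0.04 in cluster 7, and 3.09 and -0.08 in cluster 8.

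**Figure D3:**
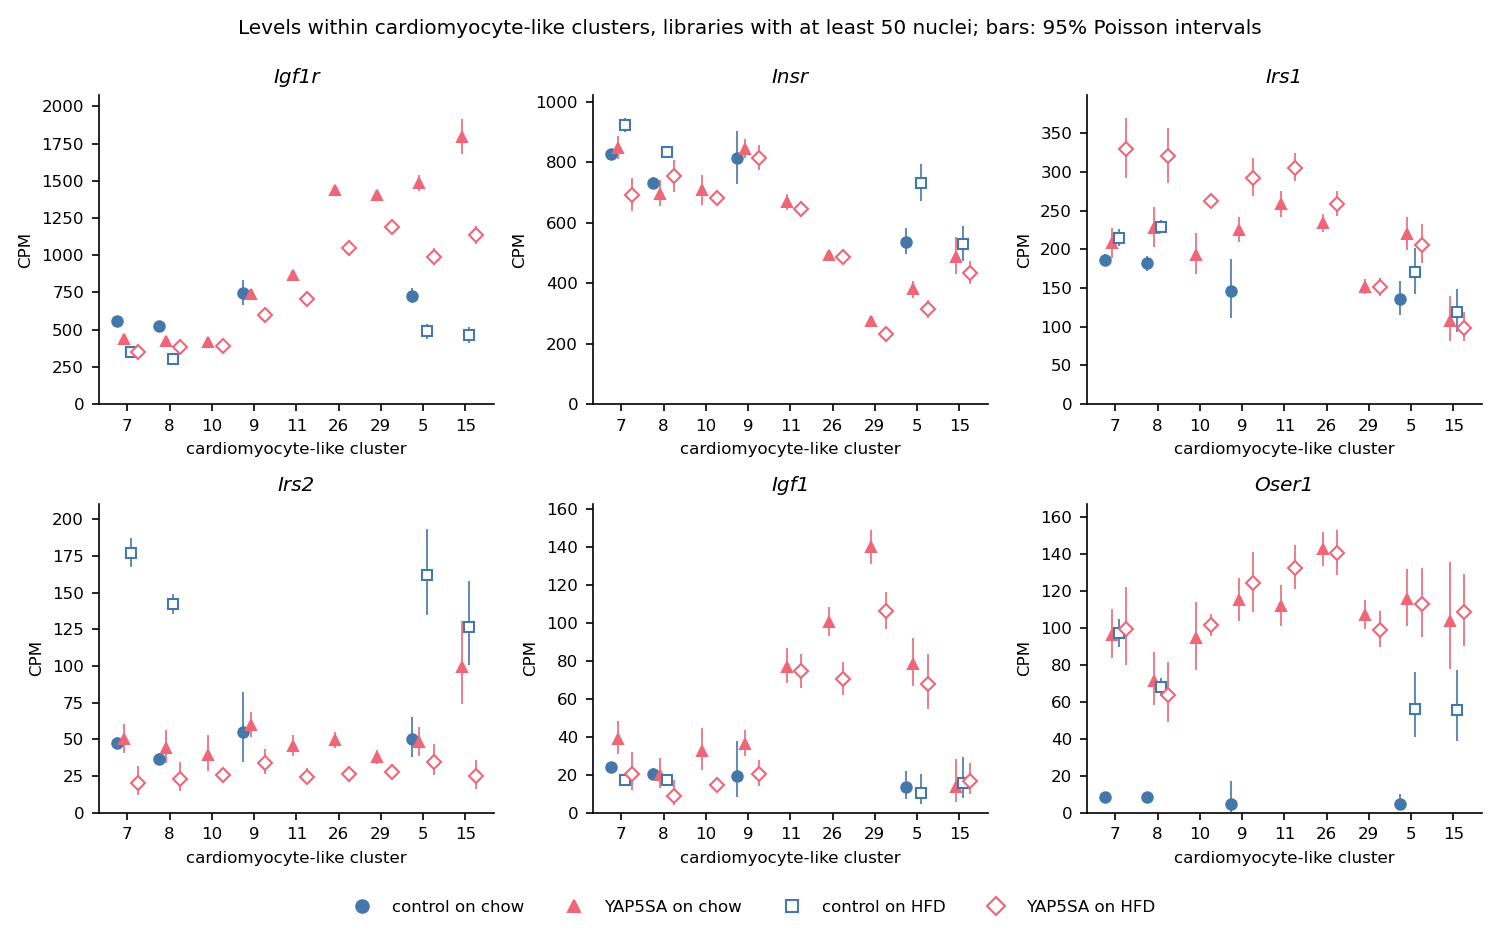
CPM of 6 genes in 9 cardiomyocyte-like clusters, 1 point per library with at least 50 nuclei in the cluster and bars of 95% Poisson intervals. Igf1r and Igf1 are high and Insr low in clusters 26 and 29, which hold YAP5SA nuclei only at this limit, and control on HFD is high for Irs2 and control on chow low for Oser1 in each cluster where they are drawn.

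Cardiomyocyte-like nuclei also held fewer UMIs of their own markers with YAP5SA: 14 marker genes summed to 48660, 29878, 50366 and 31641 CPM by library. In the same nuclei 10 fibroblast markers summed to 309, 258, 489 and 351 CPM, against 7061 to 8635 in fibroblast-like nuclei. There 11 macrophage markers summed to 11.7, 24.3, 21.2 and 52.7 CPM, against 5493 to 8421 in macrophage-like nuclei, with 1 of them at 0 in control on chow. The part of such RNA in the member values was not tested.

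In fibroblast-like nuclei, to which the promoter of the vector is not directed, 5 of the 9 genes passed the test, where edgeR called 12.4% of 15348 genes (6.9% higher and 5.48% lower). Igf1 and Oser1 rose, and Insr, Irs1 and Foxo1 fell. Igf1 read 113, 195, 93.6 and 194 CPM by library, a log2 fold of 0.79 (SE 0.14, edgeR adjusted p = 0.00967). Insr read 177, 108, 158 and 109 CPM and fell by 0.75 on the log2 scale (SE 0.13, adjusted p = 0.00947). The arms did not overlap for either gene, as for 38.9% of genes higher and 20.1% lower with YAP5SA, and the arms' means were 103 and 194 CPM for Igf1 and 168 and 109 for Insr. Cardiomyocyte-like nuclei held more Insr than these nuclei (546 to 850 CPM) and less Igf1 (17.3 to 84.1 CPM). Igfbp2 read 0, 58.2, 0 and 24.3 CPM in cardiomyocyte-like nuclei and 0, 5.24, 0.0991 and 1.79 CPM in fibroblast-like nuclei. The part of cardiomyocyte RNA in the fibroblast-like calls was not tested.

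Irs1 read 307, 209, 248 and 205 CPM in fibroblast-like nuclei and fell by 0.54 (SE 0.14, edgeR adjusted p = 0.0449), and Foxo1 read 172, 117, 220 and 150 CPM and fell by 0.68 (SE 0.17, adjusted p = 0.0350). Oser1 read 13.3, 55.2, 29.8 and 58.8 CPM and rose by 1.23 (SE 0.30, adjusted p = 0.0344). Irs1 and Foxo1 lay near the threshold: with scaling to total UMIs they had adjusted p = 0.0816 and 0.0656. Without control on HFD the calls of Irs1, Foxo1 and Igf1 were lost, the last at a log2 fold of 0.66 and adjusted p = 0.114. Irs1 was also lost without control on chow or YAP5SA on HFD, and Oser1 without YAP5SA on HFD (adjusted p = 0.0540). Igf1r stayed at 745 to 908 CPM, and its log2 fold was -0.15 (SE 0.15, adjusted p = 0.567).

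The fibroblast-like clusters also shifted between arms. Cluster 0, led by Tnc, Col24a1 and Col8a1, made up 10.3% and 10.7% of the class in the controls on chow and HFD and 58.1% and 49.0% in the YAP5SA libraries. Within it Igf1 read 67.8, 184, 51.2 and 182 CPM over the 4 libraries in the order above, and Insr 158, 98.6, 146 and 106. Within cluster 1, most of the control fibroblast-like nuclei, Igf1 read 156, 367, 151 and 317 CPM, and Insr 199, 170, 173 and 151. In both clusters Igf1 was higher and Insr lower in each YAP5SA library than in each control. Cluster 4 made up 6.12% and 4.70% of the class in the controls and 24.6% and 25.2% with YAP5SA. Igf1 was higher with YAP5SA there too (119, 157, 63.8 and 173 CPM), while Insr read 90.9, 103, 122 and 93.7 CPM and the arms overlapped.

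The other fibroblast-like calls were uneven over these clusters. Foxo1 read 188, 121, 180 and 140 CPM in cluster 0, but 133, 134, 197 and 175 CPM in cluster 1, where it was level on chow. Irs1 read 281, 230, 231 and 209 CPM in cluster 1, while in cluster 0 it was higher in both YAP5SA libraries, at 188, 204, 158 and 204 CPM. Cluster 2, which held 265 and 273 CPM of Foxo1 and 419 and 290 CPM of Irs1 in the controls, made up 23.4% and 33.1% of the class in the controls and 2.42% and 5.54% with YAP5SA. Its part in the Foxo1 and Irs1 calls was not tested. Oser1 was higher in each YAP5SA library than in each control in clusters 0, 1, 2 and 4.

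Macrophage-like nuclei showed the reverse for Igf1. It read 299 (control) and 102 CPM (YAP5SA) on chow, against 244 and 121 CPM on HFD, and fell by 1.36 on the log2 scale (SE 0.22, edgeR adjusted p = 0.0230). Insr read 418, 126, 283 and 165 CPM and fell by 1.34 (SE 0.26, adjusted p = 0.0343). These were 2 of the 8 genes tested in the class, where edgeR called 3.28% of 8878 genes (2.14% lower). With diet as a second term the 2 calls were lost (adjusted p = 0.0654 and 0.0837), as they were without YAP5SA on HFD or with a stricter filter on nuclei. Insr was also lost without YAP5SA on chow (adjusted p = 0.0735), while without control on HFD Irs1, Oser1 and Igf1r were called as well (adjusted p = 0.00304, 4.72e-05 and 0.0245). The class was small, at 116, 208, 208 and 537 nuclei.

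Cluster 16, led by the chemokine receptor gene Ccr2, made up 11.2% and 6.25% of the macrophage-like nuclei in the controls on chow and HFD and 49.5% and 26.4% with YAP5SA, and its Igf1 was at most 28.0 CPM in any library. In cluster 17, led by F13a1 and Mrc1, Igf1 still read 336, 150, 262 and 145 CPM in the order of libraries above, and Insr 421, 132, 283 and 151. Cardiomyocyte RNA moved with this result: the 14 cardiomyocyte markers summed to 11164, 1288, 2876 and 1341 CPM in macrophage-like nuclei. The largest sum fell on the library with the highest Insr and Irs1 of the class (56.8 CPM of Irs1 in control on chow, and 4.71, 25.4 and 10.2 in the others). Its part in the result was not tested.

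**Figure D4:**
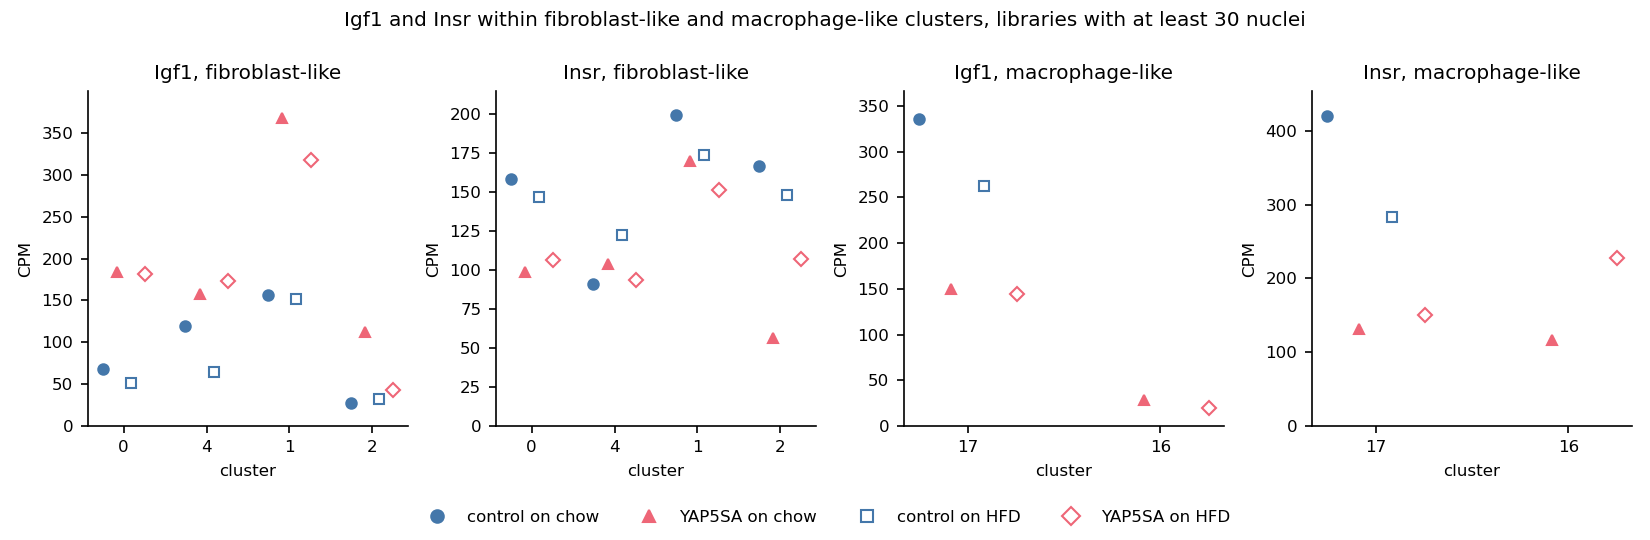
CPM of Igf1 and Insr in the fibroblast-like clusters 0, 4, 1 and 2 and the macrophage-like clusters 17 and 16, 1 point per library with at least 30 nuclei in the cluster. In clusters 0 and 1 both YAP5SA points lie above the control points for Igf1 and below them for Insr, and in cluster 17 both genes are lower in the YAP5SA libraries.

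Endothelial-like and endocardial-like nuclei had no call among the 9. In endothelial-like nuclei edgeR and DESeq2 both called 0 of the 8 tested, where edgeR called 0.0478% of 10452 genes, and 4 of the 8 had an unadjusted p under 0.05, beside 12.4% of all genes. Igf1 there was level, at 190, 200, 202 and 212 CPM. In endocardial-like nuclei edgeR and DESeq2 also called 0 of the 9 (edgeR called 2.88% of 12311 genes), and 7 of the 9 had an unadjusted p under 0.05, beside 14.3% of all genes. Insr was higher there with YAP5SA in both libraries, at 227, 384, 211 and 329 CPM (log2 fold 0.68, SE 0.17, edgeR adjusted p = 0.0605), as were 23.8% of genes. Irs2 repeated the high value of control on HFD, with 19.3, 17.2, 53.5 and 6.30 CPM, while the 14 cardiomyocyte markers in these nuclei summed to 4171, 1276, 2886 and 1388 CPM. Their part in the Irs2 values was not tested. Leaving out 1 library brought edgeR calls in this class: Irs2 without control on chow or YAP5SA on chow (adjusted p = 1.08e-07 and 0.0125), Igf1 without YAP5SA on chow (0.0432), Irs1 and Oser1 without control on HFD (0.0184 and 0.00413), and Insr without YAP5SA on HFD (0.00234).

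Differences of the YAP5SA effect between classes were tested in joint fits, chosen after the data were seen, in which the sums of 1 library enter each class. Igf1r differed from every class it was compared with: its fold in cardiomyocyte-like nuclei exceeded that in fibroblast-like nuclei by 1.11 on the log2 scale (adjusted p = 0.0318), in endothelial-like by 1.55 (0.000187), in endocardial-like by 1.40 (0.00962) and in macrophage-like nuclei by 1.66 (0.000362). These edgeR fits called 11.6%, 6.27%, 6.55% and 7.51% of all genes. In clusters 7 and 8 alone the difference from fibroblast-like nuclei was -0.14 and none of the 4 was called. The call against fibroblast-like nuclei was also lost without cluster 29 (adjusted p = 0.0811) and without control on chow, YAP5SA on chow or control on HFD (0.0845, 0.113 and 0.219), and that against macrophage-like nuclei without YAP5SA on chow (0.123).

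Insr differed from the endothelial-like fold by -0.93 (edgeR adjusted p = 0.00800) and from the endocardial-like one by -1.30 (adjusted p = 0.00335), since it was lower with YAP5SA in cardiomyocyte-like nuclei and higher in both other classes. Igf1 differed from the endothelial-like fold by 1.66 (edgeR adjusted p = 0.000260) and from the macrophage-like one by 2.86 (SE 0.29, adjusted p = 4.10e-20). With only 4 libraries, edgeR estimates the spread of a gene in large part from all genes together. The size of the smallest p-values therefore does not measure how far Igf1 itself varied between libraries. Foxo1 differed from the fibroblast-like fold by 1.02 (edgeR adjusted p = 0.0289). Irs1 differed from the endocardial-like fold by 1.27 (adjusted p = 0.0497) and from the macrophage-like one by 2.36 (adjusted p = 9.85e-06), in classes that hold the cardiomyocyte marker sums given above. In clusters 7 and 8 alone the Igf1 differences were 0.20 and 1.39 (edgeR adjusted p = 0.907 and 0.106), the Insr differences -0.53 and -0.86 (0.403 and 0.0966), the Foxo1 difference 0.87 (0.0692) and the endocardial-like Irs1 difference 1.49 (0.125), so that none of these 6 was called. Leaving out 1 library ended the Foxo1 call for each library but control on chow (edgeR adjusted p = 0.108 without YAP5SA on chow, 0.173 without control on HFD and 0.0660 for the last), the endothelial-like Insr call for control on HFD (0.0644), the endocardial-like Irs1 call for control on chow and YAP5SA on HFD (0.133 and 0.177; also without cluster 29, 0.0670) and the macrophage-like Irs1 call for control on chow (0.0689).

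The other genes of the pathway were read from 6 lists in cardiomyocyte-like nuclei. Beside the counts below, edgeR called 7.59% of all genes higher and 4.08% lower in this class. Of 15 tested genes in the list of ligand-binding proteins and IGF proteases, 4 rose and 0 fell. This list also holds the Igf2bp genes, whose proteins bind RNA. Its median log2 fold was 0.66 beside 0.04 over all genes. Igfbp2, a secreted IGF-binding protein, had 0 UMIs in both controls and 58.2 and 24.3 CPM in YAP5SA on chow and HFD, at least 452-fold and at least 167.68-fold higher against a floor of 3 UMIs per library (edgeR adjusted p = 0.00428). Igf2bp1, a fetal RNA-binding protein, read 1.07, 22.1, 1.01 and 12.1 CPM in the order of libraries above (log2 fold 3.98, adjusted p = 0.00447). Pappa, a protease that frees IGFs from their binding proteins, read 7.89, 27.1, 4.30 and 30.3 CPM (2.17, adjusted p = 0.00936), and Igf2r, which clears IGF2, 288, 493, 303 and 693 CPM (0.92, adjusted p = 0.0337).

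Of 27 genes in the PI3-kinase, AKT and mTOR relay 2 rose and 2 fell (all genes: 7.59% and 4.08%), with a median of -0.05. The catalytic subunit genes Pik3cb and Pik3cd rose, Pik3cb from 15.8 and 14.5 CPM in the controls to 96.1 and 72.3 CPM (log2 fold 2.41, edgeR adjusted p = 0.00352) and Pik3cd from at most 0.966 CPM to at least 6.07 CPM (2.72, adjusted p = 0.00791). The kinase gene Akt2 fell, from 48.9 and 79.2 to 31.0 and 28.5 CPM (-1.18, adjusted p = 0.0450). The regulatory subunit gene Pik3r3 fell from 54.8 and 63.6 to 26.9 and 27.7 CPM (-1.19, adjusted p = 0.0135).

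Among 26 genes for brakes on the pathway 1 rose and 1 fell (all genes: 7.59% and 4.08%), with a median of -0.0022. Both belong to the suppressors of cytokine signalling: Socs3 rose from 0.214 and 0.532 to 4.12 and 3.98 CPM (log2 fold 3.37, edgeR adjusted p = 0.0132), and Socs2 fell from 180 and 132 to 92.7 and 89.5 CPM (-0.84, adjusted p = 0.0425). In the growth hormone list 0 of 6 rose and 1 fell, Cish, which growth hormone induces through STAT5, from 66.7 and 76.2 to 25.8 and 24.4 CPM (-1.58, adjusted p = 0.00654). Of 15 genes for other FoxO factors and their partners 1 rose and 0 fell: Stk4, the Hippo kinase MST1, from 24.0 and 24.1 to 66.1 and 45.2 CPM (1.15, adjusted p = 0.0383).

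Of 28 tested FoxO target genes 4 rose and 1 fell (all genes: 7.59% and 4.08%), with a median of 0.28. Klf4 (log2 fold 2.27, edgeR adjusted p = 0.00384), Gadd45b (2.92, adjusted p = 0.00451), Cited2 (1.64, adjusted p = 0.0106) and Bcl6 (0.86, adjusted p = 0.0419) rose, and the pro-apoptotic Bcl2l11 fell, from 82.4 and 78.9 to 41.9 and 48.9 CPM (-0.90, adjusted p = 0.0201). Klf4 and Gadd45b, which other signals also induce, read 27.7 and 17.8 CPM in YAP5SA on chow against 4.89 and 2.57 in its control. Neither Foxo1 nor Foxo3 passed the test in these nuclei. In all 6 lists, clusters 7 and 8 alone gave 0 calls. Without cluster 29 the calls of Igf2r, Akt2, Socs2, Cited2, Bcl2l11 and Stk4 were lost. Of the 17 genes called over the lists, 11 were called in each of the 4 fits without 1 library, and 6 were lost in at least 1: Igf2r without control on chow or control on HFD, Bcl6 without any library but YAP5SA on chow, Akt2 without any but control on chow, Socs2 without any but control on HFD, Bcl2l11 without either control, and Stk4 without control on chow or YAP5SA on chow.

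**Figure D5:**
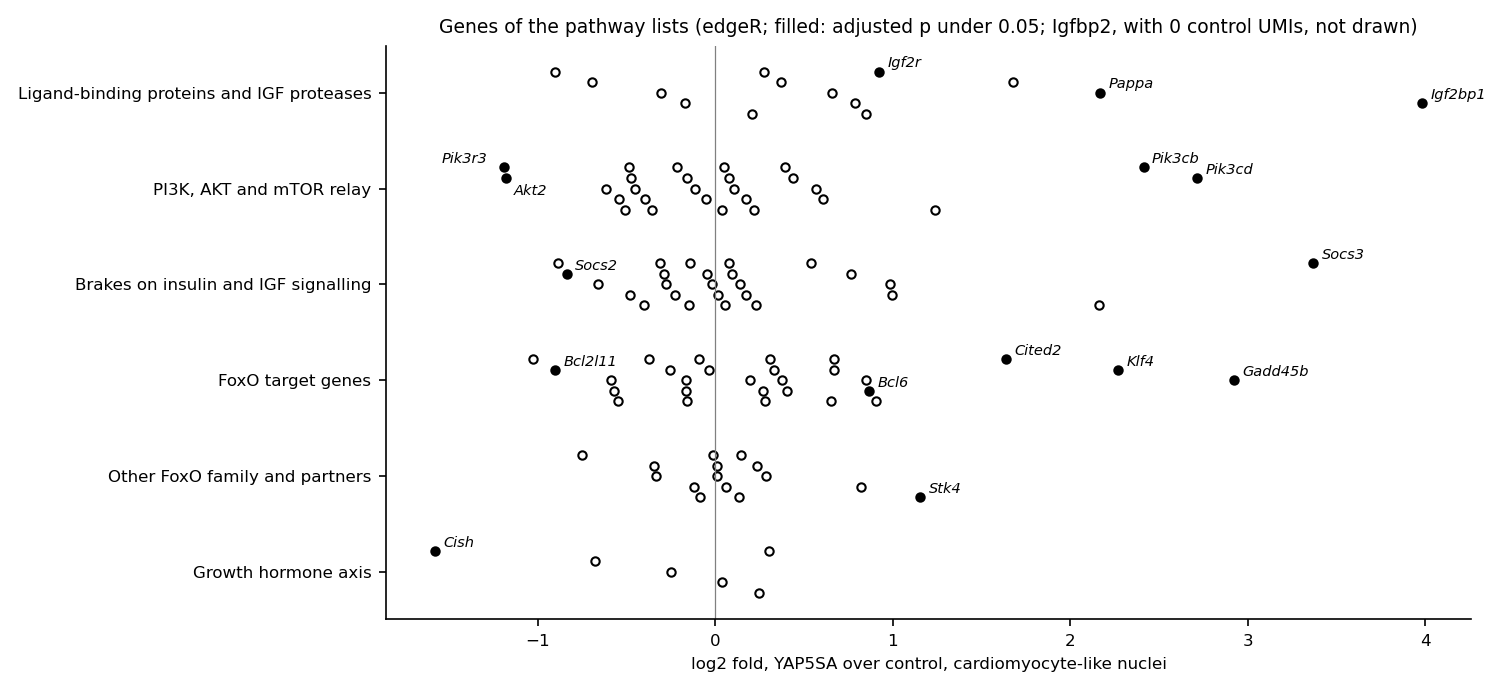
Log2 fold of YAP5SA over control in cardiomyocyte-like nuclei for the tested genes of the 6 pathway lists, 1 point per gene, filled and named where the edgeR adjusted p is under 0.05. Most points lie open around 0, and filled points stand on both sides in the relay, brake and FoxO target lists.

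In fibroblast-like nuclei, where 6.9% of all genes were called higher and 5.48% lower, the same lists gave 3 higher and 1 lower of 15 for ligand-binding proteins and IGF proteases, 2 and 0 of 27 for the relay, and 4 and 5 of 25 for the brakes. The FoxO targets gave 3 and 3 of 27, the other FoxO genes 1 and 0 of 15, and the growth hormone list 0 and 1 of 6.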

How the data were processed

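The deposited files hold raw UMI counts per gene and nucleus, which the authors made with Cell Ranger 7.1.0 on mm10, per the submitters' processing notes. Neither the annotation nor whether introns were counted is given in the sources used here. Of 32291 features, 6 were added sequences that were left out of the sums and tests. Nuclei with fewer than 500 genes or over 5% mitochondrial UMIs were removed. Doublets were marked per library with Scrublet in scanpy 1.11.5, and where it marked under 0.5% (both chow libraries) the nuclei of highest score were dropped at 0.8% per 1000 nuclei. In all 4.51% to 6.93% of nuclei went. Nuclei were clustered with Leiden at resolution 1 on 3000 variable genes without the 9 members, 30 principal components and 15 neighbours. Clusters were named from marker lists, and the lower limit that names cluster 29 and the rule that haemoglobin markers block no other name were set after the data were seen. Raw counts were summed per library and class and tested with edgeR 4.0.16 (R 4.3.3; TMM, filterByExpr, quasi-likelihood test, Benjamini-Hochberg over all genes, threshold 0.05), 2 libraries per arm, so TMM scaled folds can differ from ratios of CPM. DESeq2 1.42.0 was an alternative. Standard errors are approximate. Intervals are 95% Poisson, exact binomial or conditional binomial, and cover counting error only. The edgeR fit was also run on simulated data with the same spread for every gene. That setting is simpler than these data, so the run gives no measure of the error here. The members and lists were chosen with earlier results of these data known. All 9 members are named, with up to 5 genes of each list by p and the 3 genes most like each member. Other settings were other scalings, filters, a diet term, doublets kept, finer clusters, members kept for clustering and each library left out. A single gene was taken out of the pathway lists and their counts and is not reported here. Protein sequences were not used here.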

Additional observations from a re-analysis of the deposited data

Results flagged for a closer look

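The YAP5SA effect differed between cell classes for 5 of the 9 genes in joint edgeR fits with the library as a block, 11 differences in all with an adjusted p under 0.05. For Igf1r the log2 fold in cardiomyocyte-like nuclei was higher by 1.11 than in fibroblast-like, by 1.55 than in endothelial-like, by 1.40 than in endocardial-like and by 1.66 than in macrophage-like nuclei. For Igf1 it was higher by 1.66 than in endothelial-like and by 2.86 than in macrophage-like nuclei, and for Irs1 by 1.27 than in endocardial-like and by 2.36 than in macrophage-like nuclei. For Foxo1 it was higher by 1.02 than in fibroblast-like nuclei. For Insr the difference was -0.93 from endothelial-like and -1.30 from endocardial-like nuclei. These fits were chosen after the data were seen, and the sums of 1 library enter both classes. They called 11.6% of all genes against fibroblast-like, 6.27% against endothelial-like, 6.55% against endocardial-like and 7.51% against macrophage-like nuclei. In clusters 7 and 8 alone, each of these calls but that of Irs1 against macrophage-like nuclei was lost. The macrophage-like Irs1 sums held only 22, 3, 16 and 19 UMIs by library. Of the 22 in control on chow, 11 came from the 13 nuclei of cluster 16.

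In ratios of CPM, without the scaling of the edgeR fits, signs that were opposite on the 2 diets were seen for 2 genes. Each point is 1 library and there was no test. In cardiomyocyte-like nuclei the YAP5SA contrast of Irs2 was 0.12 on chow and -2.56 on HFD on the log2 scale. In fibroblast-like nuclei that of Igf1r was -0.14 on chow and 0.10 on HFD. Over both diets its mean was 812 CPM with YAP5SA and 827 CPM in the controls, while the scaled edgeR fold was -0.15. The Irs2 value on chow and the Igf1r value on HFD are small enough that their signs may depend on the scaling, which was not tested. Whether these contrasts differ between diets was not tested, since each group is 1 library, and the diet names rest on the sample titles.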

How the results depend on the processing

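No paired analysis was possible because the labels give no replicate numbers, and the only pairing the groups allow is by diet, which the fit with diet as a second term uses (1223 genes higher and 645 lower in cardiomyocyte-like nuclei). In cardiomyocyte-like nuclei 1 member was called. That count became 4 with no filter on low counts (Igf1r, Insr, Irs2 and Igf1), 3 with DESeq2, 2 with diet as a second term, 0 without cluster 29 and 0 in clusters 7 and 8 alone (both chosen after seeing the data), and 1 to 3 with 1 library left out. All genes called higher went from 1283 to 583 without cluster 29, 0 in clusters 7 and 8 and 2000 with no filter. All genes called lower went from 690 to 250, 0 and 1248 in the same order, to 442 with scaling to total UMIs, 1133 with DESeq2 and 381 without control on HFD. In fibroblast-like nuclei 5 members became 3 with scaling to total UMIs, 3 with the stricter filter on nuclei and 2 to 5 with 1 library left out. In endothelial-like nuclei 0 became 2 with no filter on low counts and was 0 with any 1 library left out, and in endocardial-like nuclei 0 became 5 with no filter and 1 to 2 with 1 library left out. In macrophage-like nuclei 2 became 5 with no filter, 0 with diet as a second term, 0 with the stricter filter on nuclei, 1 with doublets kept, and 0 to 5 with 1 library left out. Calls over all genes under other settings are given here only for cardiomyocyte-like nuclei. The member counts of the other classes under those settings therefore stand without that background and cannot be read against it. The diet fits called 0 members in all 9 alternatives of each class. The YAP5SA library had the higher share of positive nuclei in 34 of 126 pairs of a member, class and diet, and in 49 after thinning, with the same order in 101.

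Signs turned for folds that had missed the threshold: in cardiomyocyte-like nuclei Irs1 to -0.045 without control on chow (up to 0.28 without control on HFD), Igf2 to 0.065 without YAP5SA on HFD (down to -0.27 without YAP5SA on chow) and to 0.16 in clusters 7 and 8, and Igf1r to -0.18 in clusters 7 and 8. The endothelial-like Igf1 fold went to -0.024 with no filter, -0.021 without control on chow and -0.0043 without YAP5SA on HFD (up to 0.051 without control on HFD), the endocardial-like Igf2 fold to -0.093 with the stricter filter on nuclei, the macrophage-like Irs1 fold to 0.47 with doublets kept, and the fibroblast-like diet fold of Igf2 to -0.077 with the stricter filter. The called difference of Igf1r between cardiomyocyte-like and fibroblast-like nuclei turned to -0.14 in clusters 7 and 8. The causes of these changes were not tested. Each arm holds 2 libraries, and after 1 is left out the lone library is assumed to vary like the other arm. The macrophage-like sums rest on 116 to 537 nuclei per library, so low counts limit the precision there.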
